A study of Mus musculus with 12 samples.

Results

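The cytoplasmic ribosomal protein genes encode the proteins that, with the ribosomal RNAs, build the large and small subunits of the ribosome outside mitochondria. Here the family was taken as every gene annotated alone on a probe set with a symbol that starts with Rpl or Rps and a number, or with Rplp0 to Rplp2, leaving out the S6 kinases and pseudogenes. The rule found 49 of the 18193 genes measured. It took in 20 proteins of the large subunit, 20 of the small subunit and 2 of the acidic stalk, Rplp0 and Rplp2. The other 7 were the paralogs Rpl3l, Rpl7l1, Rpl22l1, Rpl39l, Rps4l and Rps27l, and Rps19bp1, a binding partner of Rps19 that is no subunit of the ribosome. A further 31 symbols of the family, Rpl5 and Rplp1 among them, stood only on probe sets that carry several symbols and were not analysed here.

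RNA came from 4 mouse lung adenocarcinoma cell lines, with 3 biological replicates per line and 1 Affymetrix array per replicate. KC1, KC2 and KC3 are labelled highly metastatic and KC4 poorly metastatic. All 12 samples share the genotype K-rasLA1/+; Cdkn1a-/- and a background given as 127s, so mutant K-ras and the loss of p21 are common to both classes. The cultures, kept in RPMI with serum, came from primary lung tumours, 6 tumours of 4 mice by the labels, which do not assign lines to mice. KC4 was the only poorly metastatic line, so its class and its own identity cannot be told apart. As a check of cell type, the log2 of the summed signal of 6 epithelial markers ran from 16.04 to 16.36 over the arrays of KC1, KC2 and KC3 and from 15.84 to 16.10 in KC4. Within that list Cdh1 was highest in KC4 (13.65, 13.43 and 13.48 in KC1, KC2 and KC3, against 13.91 in KC4), while Epcam (13.61, 13.74 and 13.24, against 12.63) and Cldn4 (11.88, 12.01 and 11.65, against 10.31) were lowest there. The sum of 9 lung epithelium markers differed by line, at 10.30 to 10.44 in KC1, 11.48 to 11.66 in KC2 and 9.93 to 10.41 in KC3, against 11.11 to 11.28 in KC4. Its lineage factor Nkx2-1 stood near the floor of the scale, at 4.18, 4.42 and 4.82 in KC1, KC2 and KC3 and 5.41 in KC4. Aqp5 did not, at 7.76, 10.22 and 8.68, against 10.49, and both were highest in KC4. Other markers of the list went otherwise. Sftpd was above KC4 in KC1 and KC2 and below it in KC3 (8.86, 10.32 and 6.75, against 7.27). Sftpa1 was lowest in KC4 (6.17, 5.89 and 5.74, against 5.63). The summed signals of 7 fibroblast, 5 leukocyte and 4 endothelial markers lay between 8.31 and 9.80 on every array, with overlap between the classes in each. The part of these markers in the results below was not tested.

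A ribosome needs its proteins in matched numbers, and their messenger RNAs are among the most abundant of a growing cell. Many of these messages begin with a run of pyrimidines, the terminal oligopyrimidine tract, through which the kinase mTOR and the RNA-binding protein LARP1 control their translation. Transcription of the genes is driven by Myc and by general promoter factors. Ribosomal proteins that are not built into ribosomes can bind Mdm2 and so act on p53. A few have tissue-restricted paralogs, and Rps6 is the protein that S6 kinases phosphorylate.

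The promoter windows of the family were searched for letters known from such genes. RefSeq promoter windows on GRCm38.p6, which run from 250 bases before the start site to 50 after it, were matched for 43 of the 49 members (51 windows) and for 14452 of all measured genes (18109 windows). An unbroken run of at least 7 C or T letters, between 5 bases before and 30 after the start on the gene's strand, was present in 26 member windows (51.0%) and in 17.9% of all windows. The letters CGGAAG, the core that ETS factors such as GABP recognise, were found on either strand in 60.8% of member windows and in 23.7% of all windows. AAGATGG, part of the YY1 motif, stood in 15.7% of member windows and in 6.38% of all windows. The GC box GGGCGG was about as frequent in both, at 52.9% and 52.3%, as were the TATA-box letters TATAAA, at 11.8% and 9.77%. GGGCGG and CGGAAG can overlap, and a match of letters is a description of the window and not a binding site.

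The start regions below belong to the members whose signal varied most between lines and to Rps18, a subunit gene called higher in the class comparison below. Each is the gene strand, 5′ to 3′, from 60 bases before the start site to the thirtieth base of the transcript, and capitals mark a run of at least 7 C or T letters near the start. The windows lie on the minus strand for Rps19bp1 (chr15:80264277-80264366), Rpl7l1 (chr17:46782627-46782716), Rps6 (chr4:86857338-86857427) and Rps18 (chr17:33955636-33955725). They lie on the plus strand for Rpl22l1 (chr3:28805448-28805537), Rpl39l (chr16:10170168-10170257), Rpl37 (chr15:5116553-5116642), Rpl14 (chr9:120571457-120571546) and Rpl12 (chr2:32961652-32961741).
Rps19bp1: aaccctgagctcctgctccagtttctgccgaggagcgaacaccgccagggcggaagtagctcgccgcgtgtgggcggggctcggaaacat
Rpl22l1: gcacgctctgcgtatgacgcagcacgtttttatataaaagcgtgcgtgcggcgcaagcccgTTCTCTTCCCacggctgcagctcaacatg
Rpl7l1: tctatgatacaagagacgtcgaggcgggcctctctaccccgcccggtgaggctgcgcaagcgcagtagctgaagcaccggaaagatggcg
Rpl39l: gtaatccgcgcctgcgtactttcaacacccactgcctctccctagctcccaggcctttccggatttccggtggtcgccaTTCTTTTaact
Rps6: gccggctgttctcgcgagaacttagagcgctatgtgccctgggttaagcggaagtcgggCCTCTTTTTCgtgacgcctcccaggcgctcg
Rpl37: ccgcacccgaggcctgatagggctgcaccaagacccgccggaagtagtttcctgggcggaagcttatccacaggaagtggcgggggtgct
Rpl14: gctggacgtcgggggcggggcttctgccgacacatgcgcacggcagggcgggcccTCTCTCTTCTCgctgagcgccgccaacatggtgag
Rpl12: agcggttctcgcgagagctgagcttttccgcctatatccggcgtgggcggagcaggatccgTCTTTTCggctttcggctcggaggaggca
Rps18: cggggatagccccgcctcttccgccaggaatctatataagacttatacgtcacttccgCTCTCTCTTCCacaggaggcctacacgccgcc
Rpl14, Rpl12, Rps6 and Rps18 carry the run at or next to the start, as does the paralog Rpl22l1. Rps19bp1 and Rpl7l1, which are no classical subunit genes, and the subunit gene Rpl37 show no such run near the start. Only the stretch from 5 bases before the start to 30 after it was searched, and runs further upstream are not marked. In Rpl39l it starts 20 bases into the transcript.

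Values below are log2 signals with a floor of 4.00 (a linear signal of 16), from the brightest probe set of each gene. The deposited signals of each array average to 500.002 or 500.003 once 2% are trimmed at each end, so these values hide any change in total messenger RNA, and a lower level in all cells cannot be told apart from fewer cells with the transcript. The family sat at the bright end of the arrays. A mean of at least 13 was reached by 34 of the 49 members and by 302 of all 18193 genes, although brightness on different probe sets does not rank the amounts of their transcripts. Rps16, Rps4l and Rpl3l were at the floor on 11 or 12 arrays, so their probe sets carried almost no signal here. Differences were tested with limma on the 12 arrays together, with Benjamini-Hochberg adjustment over all genes of a comparison.

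Most ribosomal protein genes were slightly brighter in the 3 highly metastatic lines than in KC4, and no member differed by as much as 1 log2 unit. In the class difference, the average of the highly metastatic line means less that of KC4, 42 of 49 members were above 0, with a median of 0.19 (1.14-fold) and quartiles of 0.13 and 0.24. Over all genes, 8424 of 18193 were above 0 and the median was -0.00088. The shift lay with the bright members. Of the 34 with a mean of at least 13, 34 were above 0, with a median of 0.20. Of the 15 with a mean under 13, 8 were above 0, with a median of 0.012. The median was 0.19 for the large subunit, 0.21 for the small subunit and 0.21 for the stalk. At an adjusted p under 0.05 together with a log2 difference of at least 1, limma called 0 members, and 5.45 percent of all genes were called. The same 0 passed the log2 limit at an unadjusted p under 0.05. At an adjusted p under 0.05 alone, 15 members rose, against a background of 16.8 percent of all genes. It called 0 lower, where the background was 15.3 percent, and 1 member, Rpl39l, was lower at an unadjusted p under 0.05.

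The 15 that rose were spread over both subunits. The small subunit gave Rps3a1, Rps4x, Rps7, Rps9, Rps14, Rps15, Rps18 and Rps19, and the large subunit Rpl7, Rpl10a, Rpl12, Rpl13a and Rpl14. Rpl7l1 and Rps19bp1 completed the group. Every highly metastatic array was above every KC4 array for 5 members, Rpl13a, Rps15, Rps18, Rps19 and Rps19bp1, and 6.99 percent of all genes showed that separation. No member had every highly metastatic array below KC4, which 6.90 percent of all genes did. For Rpl13a the call rests on its brightest probe set. Its other probe sets had class differences of 0.10, 0.32 and -0.09, not called (limma adjusted p = 0.157, 0.0509 and 0.124, over all probe sets).

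**Figure D1:**
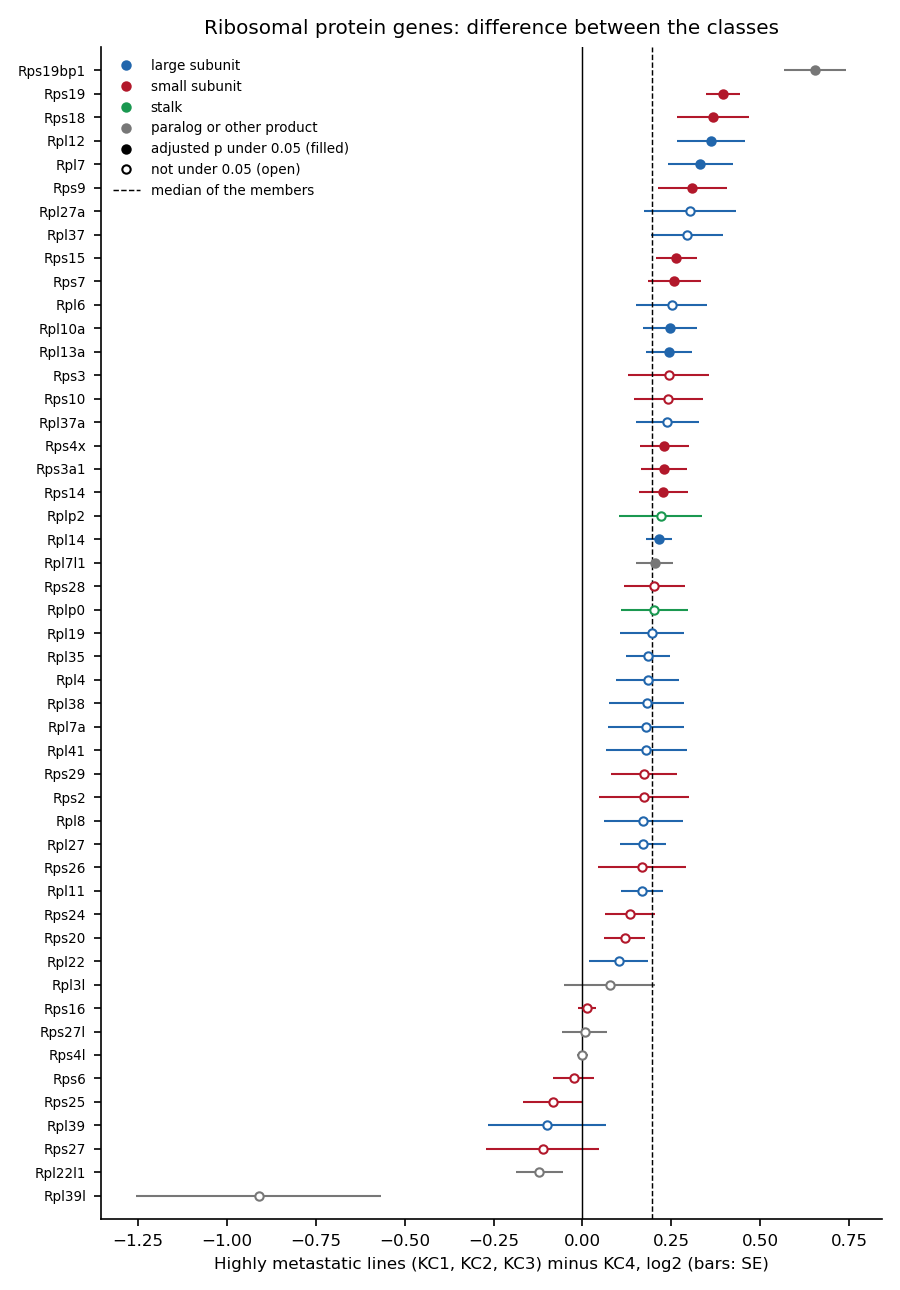
Log2 difference of each of the 49 ribosomal protein genes between the mean of KC1, KC2 and KC3 and KC4, with standard errors from limma, coloured by its place in the ribosome. Most points lie between 0 and 0.4, Rps19bp1 stands highest at 0.65 and Rpl39l, which is near the floor, lowest at -0.91.

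Rps19, a small subunit protein needed for maturation of 18S ribosomal RNA and mutated in Diamond-Blackfan anaemia in people, gave the smallest adjusted p of the members in the class comparison. It had log2 signals of 14.01, 13.92 and 13.90 in KC1, 13.92, 14.09 and 14.10 in KC2 and 13.90, 13.87 and 13.82 in KC3, against 13.59, 13.48 and 13.60 in KC4. The KC4 arrays were the 3 lowest, clear of all the others. The difference was 0.39 (SE 0.048, limma adjusted p = 0.000203), or 1.31-fold, and it was also called for KC1, KC2 and KC3 each against KC4.

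Rps18, a protein of the head of the small subunit, had 14.45, 14.24 and 14.21 in KC1, 14.29, 14.63 and 14.42 in KC2 and 14.31, 14.24 and 14.56 in KC3, against 14.15, 13.84 and 14.02 in KC4. The classes did not overlap, but the gap between the lowest highly metastatic array and the highest KC4 array was small beside the spread within a line. The difference was 0.37 (SE 0.10, limma adjusted p = 0.0206). It lost its call without KC4 replicate 2, at 0.29 (limma adjusted p = 0.106), and without KC4 replicate 3, at 0.37 (limma adjusted p = 0.0648).

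The stalk, which recruits translation factors to the ribosome, was represented by its base protein Rplp0 and by Rplp2. Rplp0 had 14.19, 14.09 and 14.09 in KC1, 13.94, 14.30 and 14.14 in KC2 and 14.03, 13.99 and 14.30 in KC3, against 13.97, 13.75 and 14.03 in KC4. Its classes overlapped, and the difference of 0.20 did not pass (limma adjusted p = 0.150). Rplp2 differed by 0.22 (limma adjusted p = 0.213). Rpl11, which binds Mdm2 when free of the ribosome, differed by 0.17 (limma adjusted p = 0.0647).

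The size of the common shift depended on KC4 replicate 2 and on the scaling. The median log2 signal over the 49 members was 14.08, 13.95 and 13.98 on the KC1 arrays, 13.80, 14.26 and 14.04 on those of KC2 and 14.11, 14.01 and 14.15 on those of KC3, against 13.94, 13.70 and 13.89 on those of KC4. KC2 replicates spanned more than the difference between the classes, and KC4 replicate 2 was the lowest array of all. The brightest probe set of an array had its highest log2 signal on KC2 replicate 2, at 14.81. Its lowest was on KC4 replicate 2, at 14.25. On several arrays, KC2 replicate 2 among them, this probe set was that of Rpl38, itself a member. These maxima are therefore not separate from the family. The 268 other genes with a mean of at least 13 had a class median of 0.065, against 0.20 for the 34 members that reached 13. These other genes were dimmer, with a median mean signal of 13.37 against 14.13, so they do not match the members in brightness. Without KC4 replicate 2 the median over the 49 members was 0.12 and 4 rose, Rpl14, Rps15, Rps19 and Rps19bp1, while the other bright genes had a median of -0.0037. After quantile normalization the members' median was 0.025, with 30 of 49 above 0, 10 called higher and 2, Rpl22 and Rps27l, called lower. Median centring of the arrays gave 0.22, with 44 of 49 above 0 and 3 called higher. With line as a random block, limma allowed for correlation between arrays of a line, at 0.56 shared by all genes. The arrays stayed the units, so this was no test over the 4 lines. That fit called 0 members at an adjusted p under 0.05 and 2 at an unadjusted one, and Rps19 had a limma adjusted p of 0.0944. The same fit called 254 of all genes higher and 175 lower. Calls over all genes are not given for the other settings of this paragraph, so their counts do not show a change of the family alone. The part of array brightness in the class difference was not tested.

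**Figure D2:**
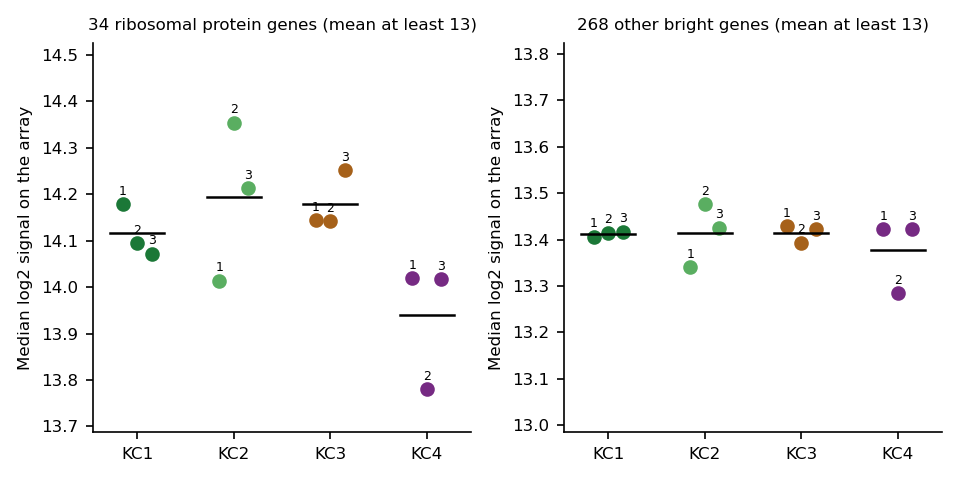
Median log2 signal on each of the 12 arrays, for the ribosomal protein genes with a mean of at least 13 and for the 268 other bright genes, which also reach 13 but are dimmer. The family's medians run from 13.78 on KC4 replicate 2 to 14.35 on KC2 replicate 2, and those of the other bright genes from 13.29 to 13.48 on the same arrays.

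Line by line, more members passed in KC2 and KC3 against KC4 than in KC1 against KC4, and so did more of all genes. The order is therefore not particular to the family. The share of members called in either direction was 8.16% for KC1, 34.7% for KC2 and 24.5% for KC3. These comparisons share the KC4 arrays, and the difference between them as a family was not tested. In KC1 against KC4, Rpl14 and Rps19 rose and Rpl22l1 and Rps6 fell, 2 members each way, where 13.5 percent of all genes rose and 12.2 percent fell. In KC2 against KC4, 17 members rose and limma called 0 lower, also 0 at an unadjusted p under 0.05, while 3278 of all genes rose and 3192 fell, 35.6 percent in either direction. In KC3 against KC4, 12 rose and limma called 0 lower, with 2 lower at an unadjusted p under 0.05, while 3240 of all genes rose and 2906 fell, 33.8 percent in either direction. The medians over the members were 0.15 for KC1, 0.21 for KC2 and 0.24 for KC3. Centring each array on its median moved the median of all genes in KC3 against KC4 to 0.16, with the members at 0.42, and quantile normalization left them at 0.031. Without KC4 replicate 2, 9 members passed in KC2 and 6 in KC3, and the calls over all genes without that array are not given.

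Among the highly metastatic lines, 5 members differed in each of the 3 pairs, Rpl14, Rpl22l1, Rpl7l1, Rps6 and Rps19bp1, which is 10.2% of the family, near the 11.5 percent of all genes that did. In KC1 against KC2, 7 members fell and limma called 0 higher, also 0 at an unadjusted p under 0.05, where 12.3 percent of all genes fell and 14.1 percent rose. In KC1 against KC3, 6 fell and 2 rose, where 16.6 percent of all genes fell and 16.6 percent rose. In KC2 against KC3, 5 rose and 4 fell, where 19.1 percent rose and 18.8 percent fell. Against the mean of the other lines, KC1 had 4 members called of 49 (23.7 percent of all genes), KC2 had 5 (35.8 percent) and KC3 had 7 (37.4 percent).

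Over the 4 lines together, a smaller share of members than of all genes was called, and their line means lay closer together. The moderated F test of limma called 14 of 49 members (28.6%), where 49.6 percent of all genes were called. The range of the 4 line means had a median of 0.29 over the members and 0.64 over all genes. A range of at least 1 was seen in 3 members, Rps19bp1, Rpl39l and Rpl22l1, none of them a standard subunit gene, where 24.9 percent of all genes reached it. The other genes with a mean of at least 13 had a median range of 0.33, close to that of the family. Within the family the median range was 0.28 for the 34 members with a mean of at least 13 and 0.59 for the 15 under 13.

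Rps19bp1, whose product is also known as a regulator of the deacetylase Sirt1, had the widest range. Its log2 signals were 9.85, 9.86 and 9.72 in KC1, 10.05, 10.28 and 10.11 in KC2 and 10.79, 10.84 and 10.54 in KC3, against 9.70, 9.39 and 9.62 in KC4. KC3 was highest on all its arrays, KC2 next, and KC1 lay just above KC4 with no overlap. The difference was 1.15 in KC3 against KC4 (SE 0.107, limma adjusted p = 3.76e-05), or 2.22-fold, and this was the 1 member called at a log2 difference of 1 there, where 3.52 percent of all genes were called higher. It was 0.58 in KC2 (limma adjusted p = 0.00227) and 0.24 in KC1 (limma adjusted p = 0.152).

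Rpl22l1, the paralog of the large subunit protein Rpl22, went the other way in KC1. It had 12.35, 12.40 and 12.34 in KC1, 13.14, 13.06 and 13.19 in KC2 and 13.39, 13.24 and 13.60 in KC3, against 13.05, 13.09 and 13.13 in KC4. KC1 was lowest on all its arrays, KC3 was highest, and KC2 overlapped with KC4. KC1 was lower than KC4 (log2 difference -0.73, SE 0.081, limma adjusted p = 0.000186) and KC3 was higher (0.32, limma adjusted p = 0.0133). KC1 against KC3 gave -1.05 (SE 0.081, limma adjusted p = 1.2e-05), the 1 member called at a log2 difference of 1 in that pair, where 2.89 percent of all genes were called lower. The class difference, -0.12, did not pass (limma adjusted p = 0.221).

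Rpl7l1, a paralog of Rpl7 with a role in making the large subunit, had 10.70, 10.70 and 10.75 in KC1, 10.89, 11.12 and 11.02 in KC2 and 11.65, 11.59 and 11.47 in KC3, against 10.93, 10.85 and 10.91 in KC4. KC3 stood above all other arrays and KC1 below them. KC3 exceeded KC4 by 0.67 (SE 0.064, limma adjusted p = 4.09e-05) and KC1 was 0.85 below KC3 (log2 difference -0.85, limma adjusted p = 9.35e-06). Its other probe sets had KC1 below KC3 too, by log2 differences of -1.35 and -0.42. Their class differences, -0.22 and 0.09, were not called, unlike the 0.20 of the brightest probe set (limma adjusted p = 0.0149).

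**Figure D3:**
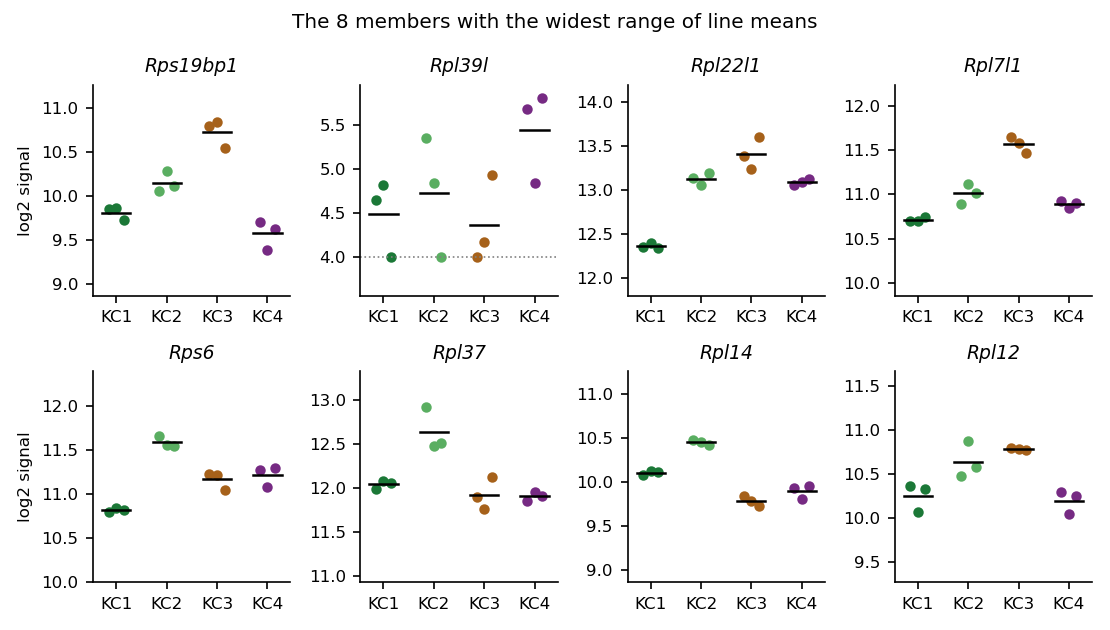
Log2 signals of the 8 members with the widest range of line means, on every array (points) with line means (bars). Rps19bp1, Rpl22l1, Rpl7l1 and Rpl12 are highest in KC3, Rps6, Rpl37 and Rpl14 in KC2, and Rpl39l, with several arrays at the floor of 4.00, in KC4.

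The standard subunit genes with the widest range were Rps6, Rpl37, Rpl14 and Rpl12. Their mean log2 signals, 11.20, 12.13, 10.06 and 10.47, lay below the family's median of 14.01. The dimmer members of the family had the wider median range, as given above. The part of probe set brightness in this ranking was not tested. Rps6, the substrate of S6 kinases in the small subunit, had 10.80, 10.84 and 10.82 in KC1, 11.65, 11.56 and 11.54 in KC2 and 11.23, 11.22 and 11.04 in KC3, against 11.27, 11.08 and 11.30 in KC4. KC1 was lowest and KC2 highest on all arrays, while KC3 and KC4 overlapped. Rps6 was lower in KC1 than in KC4 (log2 difference -0.40, limma adjusted p = 0.00264) and higher in KC2 than in KC4 (0.37, limma adjusted p = 0.00243), so the class mean hid both, at -0.03.

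Rpl37, a zinc-binding protein of the large subunit, had 11.99, 12.08 and 12.05 in KC1, 12.92, 12.47 and 12.51 in KC2 and 11.89, 11.75 and 12.12 in KC3, against 11.85, 11.95 and 11.91 in KC4. KC2 was above all other arrays. It exceeded KC4 by 0.73 (SE 0.12, limma adjusted p = 0.00136) and KC3 by 0.71 (limma adjusted p = 0.00145).

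Rpl14, also of the large subunit, had 10.07, 10.12 and 10.10 in KC1, 10.47, 10.45 and 10.42 in KC2 and 9.84, 9.78 and 9.72 in KC3, against 9.93, 9.81 and 9.95 in KC4. Its order was KC2, then KC1, with KC3 and KC4 overlapping at the bottom. KC2 exceeded KC4 by 0.55 (SE 0.045, limma adjusted p = 1.36e-05) and KC3 by 0.67 (limma adjusted p = 3.46e-06). KC3 against KC4 was -0.12 (limma adjusted p = 0.0819), so the class call of Rpl14 came with a lower mean in KC3 than in KC4.

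Rpl12, a protein of the stalk base, had 10.36, 10.07 and 10.33 in KC1, 10.47, 10.87 and 10.57 in KC2 and 10.79, 10.78 and 10.77 in KC3, against 10.29, 10.05 and 10.25 in KC4. KC2 and KC3 were above KC4 on every array and KC1 was mixed with it. KC3 exceeded KC4 by 0.59 (SE 0.12, limma adjusted p = 0.00359), KC2 by 0.44 (limma adjusted p = 0.0149) and KC1 by 0.06 (limma adjusted p = 0.826).

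The remaining paralogs gave little signal or little change. Rpl39l, in mammals best known from the testis, had 4.65, 4.82 and 4.00 in KC1, 5.35, 4.83 and 4.00 in KC2 and 4.00, 4.17 and 4.93 in KC3, against 5.67, 4.83 and 5.81 in KC4. These values lie at or close to the floor and the classes overlapped, and the difference of -0.91 did not pass (SE 0.34, limma adjusted p = 0.0775). Rpl3l, the striated muscle paralog of Rpl3, was above the floor on 1 array and Rps4l on none. Rps27l, a paralog of Rps27 known as a p53 target, had a class difference of 0.0061 and one of the narrowest ranges in the family.

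The members with the narrowest range of line means among those with a mean of at least 10 were Rpl22 (0.14), Rps27l (0.17), Rps29 (0.20), Rplp0 (0.21) and Rps28 (0.21). Rpl22 shows how far this depends on the probe set. The brightest one had line means of 14.22, 14.18 and 14.15 in KC1, KC2 and KC3 and 14.08 in KC4. A dimmer one had 10.77, 11.20 and 11.31 in KC1, KC2 and KC3, against 9.95 in KC4, a class difference of 1.14 (SE 0.040, limma adjusted p = 1.66e-07, adjusted over all probe sets). The third gave 0.03. Both of the first 2 end in s_at, a suffix of probe sets that may also read related transcripts.

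The 49 members had 104 probe sets in all, and 23 members had several. Of the 55 probe sets not used above, 43 were above 0 in the class difference, 12 were called higher and 1 lower. Over all 34945 probe sets with 1 symbol, 14.1 percent were called higher and 13.5 percent lower. The lower one belongs to Rps24, with line means of 9.18, 9.35 and 8.71 in KC1, KC2 and KC3, against 9.82 in KC4 (log2 difference -0.74, limma adjusted p = 4.86e-05). The brightest probe set of Rps24 differed by 0.13 and was not called. Among the probe sets chosen, 15 ended in s_at or x_at, and ribosomal protein genes have many processed pseudogenes, so such signals are uncertain.

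The control probe sets for 18S ribosomal RNA, the RNA of the small subunit, ran the other way from the protein genes. The 5-prime probe set had a linear signal of 535, 600 and 679 in KC1, 550, 388 and 414 in KC2 and 433, 439 and 369 in KC3, against 2706, 2828 and 4383 in KC4. The KC4 arrays were far above all the others. The log2 difference was -2.75, or 6.72-fold. The middle probe set had 261, 282 and 324 in KC1, 294, 323 and 311 in KC2 and 306, 282 and 265 in KC3, against 532, 462 and 594 in KC4. The 3-prime probe set had 479, 491 and 485 in KC1, 575, 606 and 547 in KC2 and 643, 552 and 576 in KC3, against 880, 777 and 947 in KC4. Again no highly metastatic array reached KC4, and the log2 differences were -0.84 and -0.66. An exact two-sided permutation test of 9 against 3 arrays gave p = 0.00909 for each of the 3, unchanged after adjustment over them and the smallest that 220 arrangements allow. Arrays of 1 line are not independent lines.

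**Figure D4:**
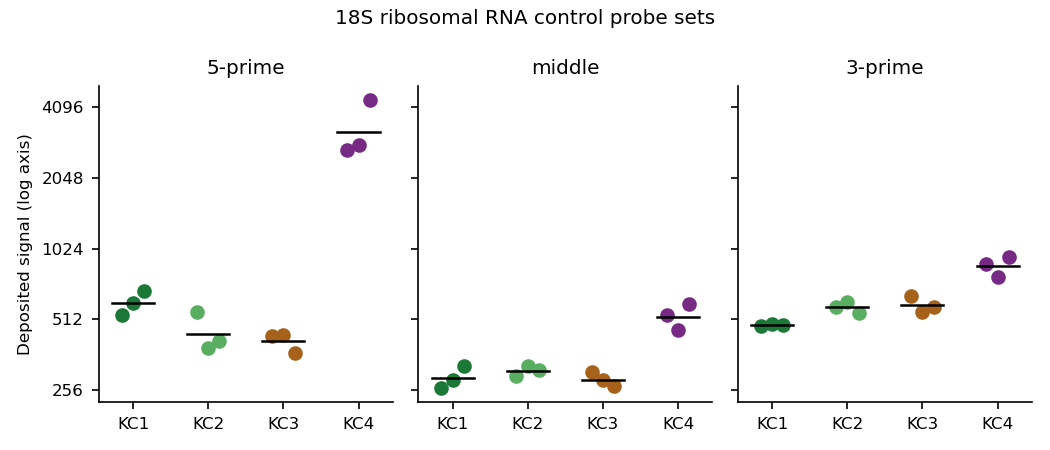
Linear signal, on a log axis, of the 3 control probe sets for 18S ribosomal RNA on every array, with bars at the geometric mean of a line. KC4 is highest in all 3, with 2706 to 4383 at the 5-prime probe set against 369 to 679 in the other lines.

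Ribosomal RNA has no poly(A) tail, and other controls on the arrays follow the labelling of tailed RNA. The 24 spike-in probe sets for polyadenylated bacterial RNA, added before labelling, were lower in KC3 than in the other lines in 24 of 24 cases, with a median log2 difference of -0.83. By class they were lower in the highly metastatic lines in 23 of 24 cases, with a median of -0.37. That class value includes the low KC3 arrays. The 3-prime DapX probe set, for example, had mean linear signals of 901, 912 and 506 in KC1, KC2 and KC3, against 960 in KC4. The 18 spike-ins added at hybridisation had medians of 0.082 in KC3 against the others and -0.092 by class. The 6 control probe sets for Actb and Gapdh had a class median of 0.13, not far below the 0.19 of the ribosomal proteins. For Actb, 3-prime over 5-prime signal on the log2 scale was 0.040, 0.17 and 0.16 in KC1, KC2 and KC3 and 0.065 in KC4. For Gapdh it was -0.32, -0.33 and -0.39 in KC1, KC2 and KC3 and -0.33 in KC4. The part of these controls in the ribosomal protein differences was not tested.

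Other genes that serve the ribosome are given by list. Beside the counts below, the shares called over all genes were 13.5 percent higher and 12.2 percent lower in KC1 against KC4, and 16.8 percent higher and 15.3 percent lower by class. In KC2 against KC4 the calls over all genes were 3278 higher and 3192 lower, and in KC3 against KC4 they were 3240 higher and 2906 lower, of 18193. Of 65 ribosome biogenesis factors measured, 42 rose and 1 fell in KC3 against KC4, while 3 rose and 24 fell in KC1 and 11 rose and 32 fell in KC2. Their medians were -0.21 in KC1, -0.23 in KC2 and 0.41 in KC3, and each kept its sign with quantile normalization (-0.21, -0.24 and 0.38) and with arrays centred on their medians (-0.24, -0.29 and 0.59). In the class comparison 17 rose and 15 fell, with a median of -0.019 that turned to 0.0087 with centred arrays. The ribosomal protein genes had medians of 0.15, 0.21 and 0.24 in the same lines, with 1 sign in all 3. With quantile normalization theirs were 0.024, 0.018 and 0.031, and with centred arrays 0.12, 0.14 and 0.42. The difference between the lists was not tested. All these comparisons share the KC4 arrays.

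The 76 mitochondrial ribosomal protein genes, which build the separate ribosome of mitochondria, had the following calls. In KC1 3 rose and 29 fell, in KC2 15 rose and 37 fell, and in KC3 29 rose and 16 fell against KC4. Medians were -0.18, -0.27 and 0.11, and 9 rose and 27 fell by class. RNA polymerase I and its factors, which transcribe ribosomal RNA, had 7 of 15 higher and 0 lower in KC3, 4 higher and 4 lower in KC2, and 1 higher and 3 lower in KC1. Of 33 translation factors, several of them encoded by messages with the same 5-prime pyrimidine tract, 17 rose and 0 fell in KC3, and 12 rose and 2 fell by class with a median of 0.16, or 0.070 after quantile normalization.

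**Figure D5:**
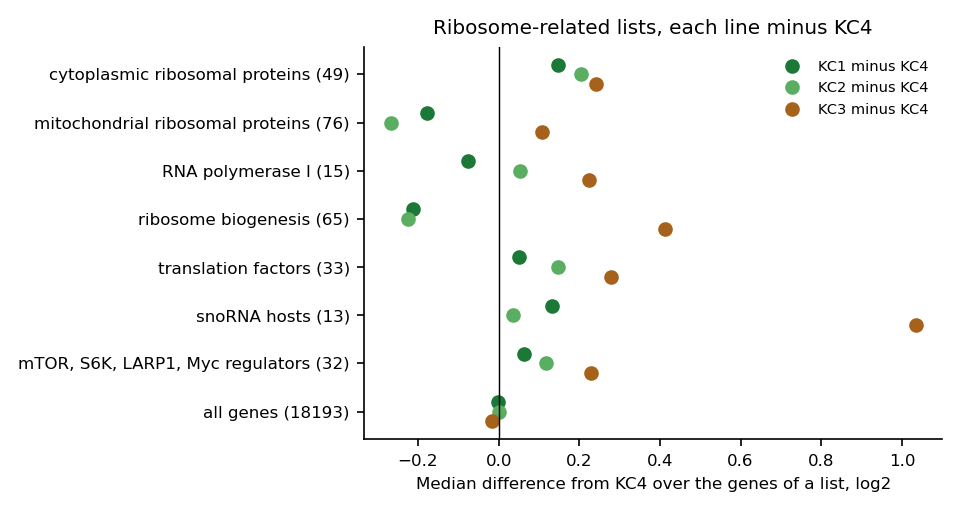
Median log2 difference from KC4 of the cytoplasmic ribosomal protein genes and of related gene lists, for KC1, KC2 and KC3. On the scale as deposited, the biogenesis factors are at -0.21, -0.23 and 0.41 and the ribosomal protein genes at 0.15, 0.21 and 0.24.

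Many small nucleolar RNAs, though not all, guide the modification of ribosomal RNA, and many of their host transcripts share the pyrimidine start. Of 13 measured host transcripts, 8 rose and 1 fell by class. Snhg12 averaged 10.89 ± 0.06, 9.81 ± 0.12 and 13.02 ± 0.14 in KC1, KC2 and KC3, against 10.18 ± 0.11 in KC4 (SD, n = 3 arrays each). KC3 carried its class difference of 1.06, while KC2 was below KC4. Snhg14 was at the floor on all 9 highly metastatic arrays and averaged 5.90 ± 0.22 in KC4 (SD, n = 3 arrays).

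Of 32 measured genes of the mTOR, S6 kinase, LARP1 and Myc network, 15 rose and 4 fell by class, where 16.8 percent of all genes rose and 15.3 percent fell. At a log2 difference of at least 1, 5 were called, beside 5.45 percent of all genes. The Myc antagonists Mxd1 and Mxi1 rose by 1.87 and 1.33, and Pdcd4, an inhibitor of translation initiation, by 1.26. Pdcd4 averaged 9.87, 10.69 and 8.82 in KC1, KC2 and KC3, against 8.53 in KC4, so KC3 lay closest to KC4. Myc averaged 12.04, 12.27 and 13.85 in KC1, KC2 and KC3, against 11.65 in KC4, a class difference of 1.07 (SE 0.051, limma adjusted p = 6.26e-07). Eif4ebp1, the translation repressor that mTOR inactivates, fell by class (log2 difference -0.55, limma adjusted p = 1.63e-05). It averaged 13.09, 12.71 and 13.54 in KC1, KC2 and KC3, against 13.66 in KC4, so KC3 lay closest to KC4. Larp1 and Mtor had differences of -0.04 and -0.13 that did not pass (limma adjusted p = 0.733 and 0.0962). Of 9 genes of Mdm2 and p53 signalling, 5 rose and 1 fell by class, beside the same shares of all genes.

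Rpsa and Fau, subunit proteins whose symbols fall outside the rule, also rose by class. Rpsa averaged 14.17, 14.19 and 14.30 in KC1, KC2 and KC3, against 13.95 in KC4, a class difference of 0.27 (limma adjusted p = 0.0429). Fau averaged 13.81, 14.04 and 13.89, against 13.54 in KC4, a difference of 0.37 (limma adjusted p = 0.0132). In the genome the 49 members lie on 17 chromosomes, with 7 each on chromosomes 7 and 17, the most on any.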

How the data were processed

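The authors deposited linear intensity values for 45101 probe sets on each array. The authors' software, background correction and summary method are not given in the sources used here, and the equal trimmed means are read from the values. Per the labels, extraction and biotin labelling followed Affymetrix protocols. After 64 control probe sets were set aside, 34945 probe sets had 1 gene symbol in the platform annotation, 932 had several and 9160 were not listed there. Signals under 16 were set to 16, log2 was taken, and the brightest probe set stood for each of 18193 genes. Lines were compared by a linear model with a coefficient for each, fitted in limma 3.58.1 (R 4.3.3; lmFit, then eBayes) and tested on simulated data. The 18S controls were tested with exact permutations in scipy 1.17.1 (Python 3.11.15), and figures were drawn with matplotlib 3.10.9.

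The members, gene lists and tests were chosen with earlier results of these data known. Named genes are members called at a log2 difference of 1, the 8 widest and 5 narrowest, all paralogs, Rplp0, Rplp2, Rps6 and Rpl11, and up to 3 genes per list called at a log2 difference of 1. Other genes were named after their values were seen. Precision is limited by 3 arrays per line, and p-values measure the spread between those arrays. Alternatives covered scaling, floor, probe set, filter, prior, minimum difference, replicate and line blocks, and leaving out each array or line.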

Additional observations from a re-analysis of the deposited data

Results flagged for a closer look

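Rpl22l1 differed from KC4 in opposite directions in 2 highly metastatic lines. The log2 difference was -0.73 in KC1 and 0.32 in KC3, and the test between them, KC1 against KC3, gave -1.05 (limma adjusted p = 1.2e-05). Leaving out any 1 array kept that difference between -1.13 and -0.95.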

How the results depend on the processing

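The 15 members called higher by class became 23 of 45 among genes above the median signal, 3 with arrays centred on their medians, 9 without line KC3 and 0 with line as a random block, and 4 to 25 when 1 array was left out. The lowest count came without KC4 replicate 2 and the highest without KC2 replicate 1. The 0 called lower became 1 with probe sets ending in s_at or x_at left out, 2 after quantile normalization and 1 without line KC2 or KC3, and ran from 0 to 1 over single arrays. At a minimum difference of 0.5 there was 1 call. At a minimum of 1 there were 0 to 1 without single arrays, the 1 being Rpl39l without KC2 replicate 1 or KC4 replicate 2. The median of 0.19 was 0.025 after quantile normalization and 0.12 to 0.24 over single arrays. Calls over all genes are given above only for the random block. The other counts, here and in the next paragraph, therefore do not show a change of the family alone.

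Counts for pairs and single lines at an adjusted p under 0.05 also moved. With centred arrays they were 1 for KC1 against KC4, 3 for KC2 against KC4, 3 for KC1 against KC2, 3 for KC2 against the other lines and 9 for the F test. With quantile normalization they were 11 for KC1 against KC2, 15 for KC1 against KC3, 8 for KC2 and 17 for KC3 against the other lines. KC2 against the others also had 9 with probe sets averaged and 11 above the median signal, and KC3 had 11 without s_at and x_at probe sets. Without single arrays the counts ran from 4 to 6 (KC1 against KC4), 9 to 24 (KC2 against KC4), 6 to 15 (KC3 against KC4), 5 to 8 (KC1 against KC2), 7 to 8 (KC1 against KC3), 6 to 9 (KC2 against KC3), 3 to 6, 4 to 12 and 5 to 15 (KC1, KC2 and KC3 against the others) and 9 to 23 (F test). The causes were not tested.

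The line or class differences given above for Rps19bp1, Rpl22l1, Rpl7l1, Rpl37, Rpl14, Rpl12, Rps19 and Rps18 that were tried again kept their sign, as did Rps6 in KC1 against KC2, and Rpl39l was at 0 with a floor of 64. Rps19, Rps19bp1 and Rps18 lost their class calls with line as a random block (adjusted p = 0.0944, 0.379 and 0.574), and Rps18 also with centred arrays (0.0581), without line KC2 (0.0531) and without KC4 replicate 2 or 3 (0.106 and 0.0648). With the replicate number as a block, 11 members were higher by class, 10 of them among the 15, and no count moved by over 1.5 times. Same-numbered arrays of different lines correlated at a median of 0.027 over 18 pairs, 3 of them over 0.1. The 36 pairs with other numbers had a median of -0.0069, 10 of them over 0.1. This gave no sign that the numbers pair the samples, but 3 arrays per line are too few to exclude it. Dim signals near the floor limit what can be seen of Rpl39l, Rps16, Rps4l and Rpl3l. Bright signals near the top of an array may limit what can be seen of the 34 members with a mean of at least 13, which was not tested.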
